A study of Rattus norvegicus with 26 samples.

Results

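Gad1, Gad2, Slc32a1, Slc6a5, Slc6a9, Slc6a11 and Abat make or break down GABA or move GABA and glycine across membranes. These 7 genes were chosen by symbol from the 32883 genes of the count table, and their RNA was described across 26 libraries of rat spinal cord. All 7 passed the filter on low counts, which kept 17990 genes. The study asked how human umbilical cord mesenchymal stem cells (hUC-MSC) change gene expression in the injured cord. All libraries came from wild type Sprague-Dawley rats, which the labels give as postnatal day 70 in every group, and the operated rats were adult females of 250.0 g. Intact rats were untreated (4 libraries). In all other groups the cord was compressed at thoracic level 10 for 1 min with an aneurysm clip of 60 g closing force. The sub-SCI group (3 libraries) was taken at 7 days after injury, when the other rats received an intrathecal injection. The +PBS groups had injury and the injection without cells at 1, 2 or 4 weeks post-transplantation (wpt; 3, 2 and 4 libraries). The +MSC groups had injury and hUC-MSC at the same weeks (3, 3 and 4 libraries). The study's methods also give daily cyclosporin A throughout the experiment and penicillin after surgery, without naming the groups that received them. Each library was made from a segment of 5 mm centred on the lesion. In the count table the genes are Gad1 ENSRNOG00000000007 (3866 bases), Gad2 ENSRNOG00000018200 (5561 bases), Slc32a1 ENSRNOG00000015393 (2385 bases), Slc6a5 ENSRNOG00000031662 (7216 bases), Slc6a9 ENSRNOG00000019484 (3290 bases), Slc6a11 ENSRNOG00000005697 (1935 bases) and Abat ENSRNOG00000002636 (2638 bases), where the length is the one the table gives.

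GABA and glycine are the fast inhibitory transmitters of the spinal cord, and many of its interneurons release both. Glutamate decarboxylase, encoded by Gad1 and Gad2, makes GABA from glutamate, and the vesicular carrier of Slc32a1 (VGAT) loads both GABA and glycine into synaptic vesicles. Released glycine is taken back into glycinergic terminals by GlyT2 (Slc6a5) and into glia by GlyT1 (Slc6a9). GABA is cleared in part by the transporter GAT-3 (Slc6a11), known from astrocytes, and GABA transaminase (Abat) degrades it in the mitochondria of neurons and glia.

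The upstream DNA of 3 of these genes is shown, since their windows ended exactly at the gene start. The RNAs of all 7 genes fell after injury, so the fall does not set these 3 apart. The RefSeq promoter table (build GRCr8) held 6 of the 7 genes, and in 3 of the 6 the window ended at the first base of the annotated gene. Each line gives the 250 bases before the start, plus strand, 5′ to 3′, with matches to the motif letters searched in capitals.
Gad2, chr17:89671468-89671717: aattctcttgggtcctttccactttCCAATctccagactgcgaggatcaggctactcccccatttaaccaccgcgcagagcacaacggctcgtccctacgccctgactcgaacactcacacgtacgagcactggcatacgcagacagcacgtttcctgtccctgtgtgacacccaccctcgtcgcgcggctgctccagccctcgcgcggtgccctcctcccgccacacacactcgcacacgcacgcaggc
Slc32a1, chr3:167686995-167687244: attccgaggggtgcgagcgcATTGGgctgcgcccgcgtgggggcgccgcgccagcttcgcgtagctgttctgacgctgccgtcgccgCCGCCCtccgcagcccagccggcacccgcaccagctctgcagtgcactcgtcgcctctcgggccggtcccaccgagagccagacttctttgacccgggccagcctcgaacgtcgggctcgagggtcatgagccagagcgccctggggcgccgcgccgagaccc
Slc6a11, chr4:148853307-148853556: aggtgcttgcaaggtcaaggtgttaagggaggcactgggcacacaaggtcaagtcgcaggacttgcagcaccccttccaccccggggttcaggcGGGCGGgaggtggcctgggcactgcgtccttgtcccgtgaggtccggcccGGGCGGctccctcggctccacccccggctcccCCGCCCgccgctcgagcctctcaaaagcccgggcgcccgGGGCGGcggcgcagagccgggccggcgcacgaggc
The letters searched on both strands were those of the TATA box (TATAAA), the CAAT box (CCAAT), the GC box (GGGCGG) and the cyclic AMP response element (TGACGTCA). The GC box letters were found in 4 of the 6 windows (Gad1, Slc32a1, Slc6a11 and Slc6a9) and in 30.5% of all 33469 windows of this length. The CAAT box letters were found in Gad2 and Slc32a1 and in 34.0% of all windows, and those of the TATA box in Gad1 and in 12.9%. The response element was in none of the 6 windows and in 1.59% of all. The G and C content was 62.0% in Gad2 and 73.6% in both Slc32a1 and Slc6a11, against a median of 51.2% over all windows. In the windows not printed it was 68.4% (Gad1), 58.4% (Slc6a9) and 52.4% (Slc6a5). None of these motifs was found in all 6 windows.

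Total counts per library lay between 19496602 and 43468509, and the smallest raw count of any of the 7 genes in any library was 131 (Slc32a1 in sub-SCI replicate 3). Levels are given as CPM, the count relative to the library size after TMM scaling. A gene is called changed here when its edgeR quasi-likelihood test gave an adjusted p under 0.01 with an absolute log2 fold change above 1. The labelled tissue was checked against its markers, and the 12 neuron markers, 10 astrocyte markers and 8 oligodendrocyte markers had counts in every library. The summed level of the 12 neuron markers was 10891 to 13130 CPM in Intact, 682 to 2558 in sub-SCI, 1432 to 7146 over the +PBS libraries and 4308 to 9940 over the +MSC libraries. Several libraries stood apart on this measure. In +PBS-4w, replicate 1 had 7146 CPM against 1977 to 2727 in the other 3, and its fibroblast and scar matrix sum was 1242 CPM against 3999 to 5025. In +PBS-2w, replicate 2 reached 5731 CPM against 3092, and in sub-SCI, replicate 3 had the lowest sum of all.

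In the intact cord the transporters and the degrading enzyme were higher per length than the synthetic enzymes. Divided by the length in the count table, Slc6a9 had 159 ± 5.80 CPM per kilobase (SD, n = 4), Abat 116 ± 2.24, Slc6a11 106 ± 14.1, Slc32a1 82.4 ± 15.9, Slc6a5 60.2 ± 13.2, Gad1 31.3 ± 2.64 and Gad2 17.9 ± 0.524. Neighbours in this order overlapped between libraries from Abat to Slc6a5, whereas Slc6a9 lay above Abat, Gad1 below Slc6a5 and Gad2 below Gad1 in every Intact library. In sub-SCI the mean of Slc6a5 was 3.39 ± 2.62 CPM per kilobase (SD, n = 3), below that of Gad1 (5.62 ± 2.44), although their libraries overlapped. At 4 wpt the means followed the Intact order both without cells, from Slc6a9 (72.0 ± 15.2, n = 4) to Gad2 (4.46 ± 1.55), and with cells, from Slc6a9 (84.9 ± 14.4, n = 4) to Gad2 (11.1 ± 5.02). The plot of levels by library shows the 7 genes on their own scales.

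**Figure D1:**
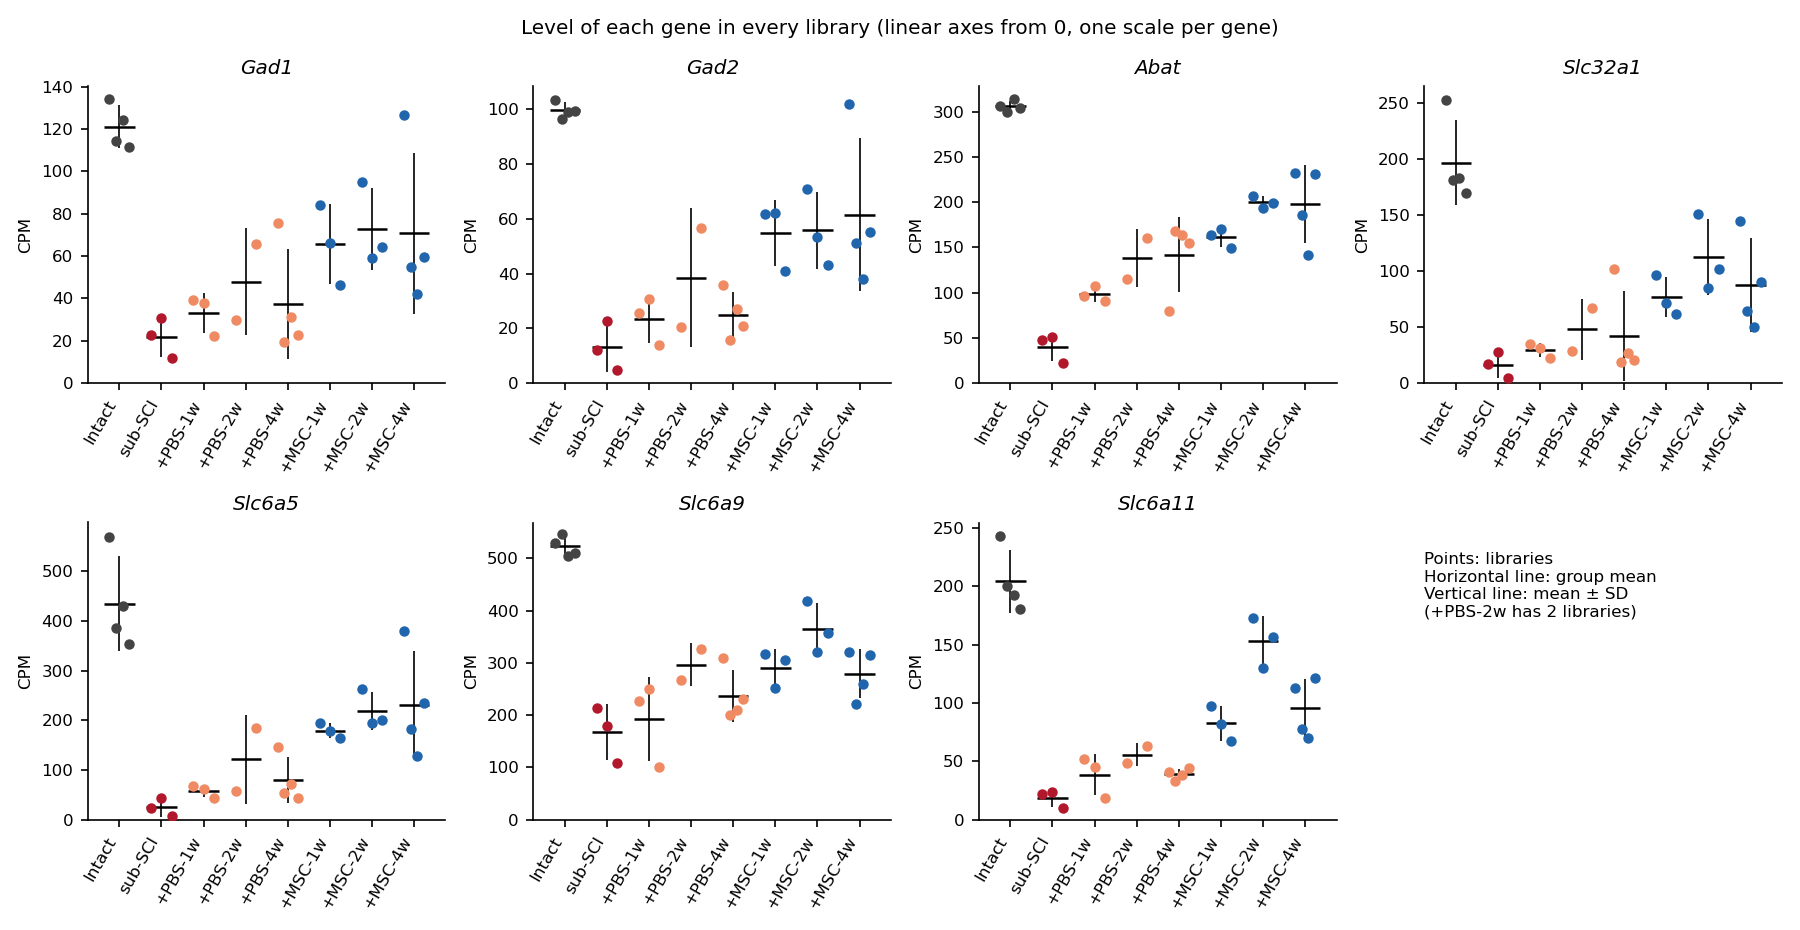
CPM of each of the 7 genes (vertical axes, linear and starting at 0) in the 8 groups, with a point for each library, the group mean as a horizontal line and the SD as a vertical line. Every sub-SCI point lies below every Intact point for all 7 genes, and in +PBS-4w replicate 1 (the leftmost point) is high for Slc32a1 (102 CPM) and low for Abat (80.1 CPM).

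At 7 days after injury all 7 genes had fallen. The share of all tested genes called lower between sub-SCI and Intact was 17.5%, and the median log2 fold change was -2.93 over the 7 genes and -0.02 over all tested genes. For the synthetic enzymes, Gad1 had 134, 115, 124 and 112 CPM in Intact and 22.6, 30.7 and 11.9 CPM in sub-SCI, a log2 fold change of -2.48 (SE 0.47, edgeR adjusted p = 9.71e-05). Gad2 had 104, 96.5, 99.2 and 99.4 CPM in Intact and 11.9, 22.5 and 4.85 CPM in sub-SCI, a log2 fold change of -2.93 (SE 0.46, edgeR adjusted p = 1.29e-05). No sub-SCI library reached an Intact library for either enzyme or for the other 5 genes (34.0% of all tested genes), and replicate 3 of sub-SCI was the lowest for both. Without that replicate all 7 genes were still called lower. In bulk tissue, fewer cells of a type and less RNA per cell cannot be told apart.

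The largest falls were those of Slc6a5, Slc32a1 and Slc6a11. Slc6a5, a marker of glycinergic neurons, had 569.8, 385, 429.6 and 353 CPM in Intact and 22.4, 44.3 and 6.68 CPM in sub-SCI, a log2 fold change of -4.15 (SE 0.57, edgeR adjusted p = 2.17e-06). Slc32a1, which serves both transmitters, had 252, 181, 183 and 169 CPM in Intact and 17.1, 27.7 and 4.44 CPM in sub-SCI, a log2 fold change of -3.58 (SE 0.62, edgeR adjusted p = 3.77e-05). The GABA transporter Slc6a11 fell by a similar amount, from 243, 201, 193 and 180.3 CPM to 21.7, 23.6 and 9.60 CPM, a log2 fold change of -3.48 (SE 0.33, edgeR adjusted p = 1.36e-08). For all 3 genes the levels in sub-SCI were well separated from those in Intact, and the sub-SCI libraries differed among themselves by several fold. Without sub-SCI replicate 3 the log2 fold changes were -3.70 for Slc6a5, -3.13 for Slc32a1 and -3.17 for Slc6a11. With all libraries, Slc6a11 lay among the lowest 1.47% of all tested genes by fold change in this comparison and Slc6a5 among the lowest 0.567%.

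The glial glycine transporter kept the most RNA. Slc6a9 had 529.9, 547, 504 and 511 CPM in Intact and 214, 178 and 108 CPM in sub-SCI, a log2 fold change of -1.65 (SE 0.26, edgeR adjusted p = 9.94e-06), so that its sub-SCI mean was 31.9% of the Intact mean against 5.63% for Slc6a5. Abat had 306, 299, 314 and 304 CPM in Intact and 47.7, 50.5 and 22.2 CPM in sub-SCI, a log2 fold change of -2.93 (SE 0.27, edgeR adjusted p = 7.48e-09). The Intact libraries were close together for Abat, with an SD of 5.92 CPM. Of the 12 neuron markers, 11 were called lower in sub-SCI, with 6 of 10 astrocyte and 5 of 8 oligodendrocyte markers, while 8 of 10 microglia and macrophage and 8 of 8 fibroblast and scar matrix markers were called higher.

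In the injured cord without cells, the group means of the 7 genes were below those of Intact at each week. In +PBS-1w 7 of 7 were called lower (12.5% of all tested genes), in +PBS-2w 2 of 7 (5.66%) and in +PBS-4w 7 of 7 (10.7%). Gad1 had 39.3, 37.8 and 22.1 CPM in +PBS-1w, 29.9 and 65.8 in +PBS-2w and 75.8, 19.6, 31.2 and 22.9 in +PBS-4w, with log2 fold changes against Intact of -1.87 (SE 0.45, edgeR adjusted p = 0.00152), -1.34 (SE 0.52, edgeR adjusted p = 0.0461) and -1.70 (SE 0.41, edgeR adjusted p = 0.00147). Gad2 had 25.6, 30.8 and 13.9 CPM in +PBS-1w, 20.6 and 56.5 in +PBS-2w and 35.7, 15.6, 26.9 and 20.9 in +PBS-4w, with log2 fold changes of -2.09, -1.37 and -2.01. For both enzymes the second +PBS-2w library was about as high as +MSC libraries of that week, and the first +PBS-4w library was the highest of its group.

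Slc32a1 had 34.96, 31.7 and 22.6 CPM in +PBS-1w, 28.9 and 66.9 in +PBS-2w and 102, 18.9, 26.4 and 20.2 in +PBS-4w. Slc6a5 had 67.4, 60.8 and 44.1 CPM in +PBS-1w, 57.9 and 185 in +PBS-2w and 147, 54.0, 72.0 and 43.8 in +PBS-4w. The first +PBS-4w library again was the highest of its 4 for both genes, and the log2 fold changes against Intact at 4 wpt were -2.23 (SE 0.52, edgeR adjusted p = 0.00116) for Slc32a1 and -2.46 (SE 0.47, edgeR adjusted p = 0.000169) for Slc6a5. Slc6a11 was not raised in that library. It had 51.7, 44.9 and 18.7 CPM in +PBS-1w, 48.6 and 62.8 in +PBS-2w and 40.8, 33.0, 37.9 and 44.2 in +PBS-4w, with log2 fold changes against Intact of -2.41, -1.87 and -2.39 (SE 0.28, edgeR adjusted p = 5.7e-07), and was 1 of the 2 genes called at 2 wpt (edgeR adjusted p = 0.000364). The 10 astrocyte markers had a median log2 fold change of -0.02 in +PBS-4w against Intact. Of these, 1 was called lower and 1 higher (10.7% and 13.3% of all tested genes). Which cells carried the Slc6a11 RNA was not tested.

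Slc6a9 had 226, 251 and 100.9 CPM in +PBS-1w, 267 and 327 in +PBS-2w and 309, 199, 209 and 230.04 in +PBS-4w. Abat had 95.8, 108 and 90.4 CPM in +PBS-1w, 115 and 161 in +PBS-2w and 80.1, 169, 164 and 155 in +PBS-4w. In +PBS-4w the first library was the highest for Slc6a9 and the lowest for Abat. Abat was the other gene called in +PBS-2w, at a log2 fold change of -1.15 (SE 0.28, edgeR adjusted p = 0.00354), and in +PBS-4w it stood at -1.11 (SE 0.22, edgeR adjusted p = 0.000297). Without +PBS-4w replicate 1, the fold change of Abat at 4 wpt was -0.86 and was no longer called, while the other 6 genes were called. In the same fit Slc32a1 stood at -3.12, Slc6a5 at -2.89 and Gad1 at -2.25, further below Intact than with all libraries. Without +PBS-2w replicate 1 the group was a single library, assumed to vary like the other groups, and edgeR called none of the 7 genes at 2 wpt (0.496% of all tested genes called lower), with 2 of 7 lower at an unadjusted p under 0.05 against 10.9% of all tested genes. The log2 fold change was then -1.68 for Slc6a11 and -0.90 for Abat. Without +PBS-2w replicate 2, Slc6a11 (-2.07) and Abat (-1.40) were still called, and the log2 fold changes of Slc6a5 (-2.90) and Gad2 (-2.27) were larger in size but not called. With both +PBS-2w libraries but without +PBS-4w replicate 1, 4 of 7 were called at 2 wpt, and the share of all tested genes in that fit is not given. With all libraries and an adjusted p under 0.05, 7 of 7 were lower at 2 wpt, against 17.0% of all tested genes.

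Between sub-SCI and +PBS-4w, Abat alone was called higher, with a log2 fold change of 1.82 (SE 0.25, edgeR adjusted p = 3.2e-05) and 4.28% of all tested genes called higher. Every +PBS-4w library of Abat lay above every sub-SCI library, as for 12.5% of all tested genes, and the same was true of Slc6a11, whose log2 fold change was 1.09 (SE 0.30, edgeR adjusted p = 0.0104). The fold changes of the other 5 genes lay between 0.50 (Slc6a9) and 1.70 (Slc6a5), and their libraries overlapped between the groups. Without +PBS-4w replicate 1 the log2 fold change fell from 0.78 to 0.17 for Gad1, from 1.36 to 0.40 for Slc32a1, from 1.70 to 1.199 for Slc6a5, from 0.92 to 0.68 for Gad2 and from 0.50 to 0.34 for Slc6a9, while that of Abat was 2.01 and Abat was still called.

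In the cord that had received hUC-MSC, the group means of all 7 genes lay between those of sub-SCI and Intact at each week. Gad1 had 84.3, 66.0 and 46.5 CPM in +MSC-1w, 94.96, 59.1 and 64.5 in +MSC-2w and 127, 54.9, 42.1 and 59.4 in +MSC-4w. Gad2 had 61.8, 62.0 and 40.8 CPM in +MSC-1w, 70.9, 53.3 and 43.3 in +MSC-2w and 102, 51.1, 38.1 and 55.1 in +MSC-4w. Slc32a1 had 96.8, 71.5 and 61.8 CPM in +MSC-1w, 151, 84.6 and 102 in +MSC-2w and 145, 64.2, 50.2 and 90.1 in +MSC-4w. The first +MSC-4w library was the highest of its group for each of these 3 genes, and for Gad1 and Gad2 it reached the range of the Intact libraries. Slc6a5 had 194, 178 and 164 CPM in +MSC-1w, 263, 194 and 199.6 in +MSC-2w and 379, 183, 128 and 235 in +MSC-4w, again with the highest value in the first +MSC-4w library, within the Intact range.

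Of the remaining members, Slc6a11 had 97.5, 82.4 and 67.7 CPM in +MSC-1w, 173, 129.6 and 157 in +MSC-2w and 113, 77.7, 69.8 and 121 in +MSC-4w. Slc6a9 had 316, 251 and 306 CPM in +MSC-1w, 418, 320.2 and 358 in +MSC-2w and 322, 222, 259 and 315 in +MSC-4w. Abat had 164, 170.3 and 149 CPM in +MSC-1w, 207, 194 and 199 in +MSC-2w and 232, 186, 142 and 231 in +MSC-4w. All libraries of the 3 genes in +MSC lay below all Intact libraries at each week, as did 25.5% of all tested genes in +MSC-1w, 21.3% in +MSC-2w and 20.4% in +MSC-4w. Over all members this held for 7 of 7 genes at 1 and 2 wpt and for 4 of 7 at 4 wpt. At an adjusted p under 0.05, 3 of 7 genes were lower than Intact at 1 wpt (14.8% of all tested genes) and 3 of 7 at 4 wpt (13.6%). Of these, Abat at 1 wpt (-0.93, edgeR adjusted p = 0.00617) and Slc6a9 at 4 wpt (-0.90, edgeR adjusted p = 0.00469) missed only the fold change threshold. Slc6a11 was the only one of the 7 genes called lower than Intact, at 1 and 4 wpt. At 1 wpt its log2 fold change was -1.31 (SE 0.30, edgeR adjusted p = 0.00203), with 2.63% of all tested genes called lower. At 4 wpt it was -1.10 (SE 0.27, edgeR adjusted p = 0.0039), with 1.53% of all tested genes called lower. At 2 wpt edgeR called none of the 7 lower, against 0.461% of all tested genes, with 2 of 7 lower at an unadjusted p under 0.05 against 14.5% of all tested genes. DESeq2 called none of the 7 at this week, against 0.942% of all genes it tested on all libraries and 1.37% on the compared groups alone, and the log2 fold change of Slc6a11 was -0.42 (SE 0.29, edgeR adjusted p = 0.337). The call of Slc6a11 at 1 wpt was lost without +MSC-1w replicate 2 or 3, and the one at 4 wpt without Intact replicate 1 or +MSC-4w replicate 2 or 3, while the log2 fold changes stayed between -1.44 and -1.18 at 1 wpt and between -1.23 and -0.98 at 4 wpt when any 1 library was left out.

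Compared with sub-SCI, 6 of the 7 genes were called higher in +MSC-4w (10.2% of all tested genes). The log2 fold change was 3.24 (SE 0.55, edgeR adjusted p = 8.7e-05) for Slc6a5, 2.41 (SE 0.59, edgeR adjusted p = 0.00241) for Slc32a1 and 2.38 (SE 0.31, edgeR adjusted p = 7.5e-06) for Slc6a11. It was 2.30 (SE 0.26, edgeR adjusted p = 1.78e-06) for Abat, 2.23 (SE 0.45, edgeR adjusted p = 0.00048) for Gad2 and 1.70 (SE 0.45, edgeR adjusted p = 0.0046) for Gad1. Slc6a9 had 0.74 (SE 0.25, edgeR adjusted p = 0.0197) and was not called. Every +MSC-4w library lay above every sub-SCI library for all 7 genes, a pattern seen for 26.2% of all tested genes in this direction. The call of Gad1 was lost without sub-SCI replicate 1 or 3 or +MSC-4w replicate 1, and that of Slc32a1 without sub-SCI replicate 1 or 3. When any 1 library was left out, the log2 fold change was 1.26 to 2.03 for Gad1 and 1.96 to 3.01 for Slc32a1.

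The comparison of +MSC with +PBS at the same week addressed the effect of the cells. The +PBS libraries enter both this comparison and the one with Intact, so the 2 sets of fold changes share samples and are given side by side only. At each of the 3 weeks the fitted fold change of all 7 genes was above 0, and at no single week did edgeR call one of them. At an unadjusted p under 0.05 the genes higher in +MSC were 7 of 7 at 1 wpt (10.6% of all tested genes), 1 of 7 at 2 wpt (5.49%) and 6 of 7 at 4 wpt (11.2%). DESeq2 on all libraries called 0 of the 7 higher at 1 wpt (0.19% of all genes it tested), 0 at 2 wpt (0.0184%) and 1 at 4 wpt (1.69%). DESeq2 on the compared groups alone called 3 at 1 wpt (1.46%), 1 at 2 wpt (0.489%) and 2 at 4 wpt (1.38%). At 1 wpt every +MSC library lay above every +PBS library for 7 of 7 genes, against 15.3% of all tested genes in this direction, and no gene of the table was called higher (0%). The log2 fold changes lay between 0.60 (SE 0.26, edgeR adjusted p = 0.232) for Slc6a9 and 1.64 (SE 0.53, edgeR adjusted p = 0.132) for Slc6a5. At 2 wpt the groups did not overlap for 4 of 7 genes (Slc32a1, Slc6a5, Slc6a11 and Abat), against 18.6%, and no gene was called (0%). The fold changes ran from 0.30 (Slc6a9) to 1.46 (Slc6a11). At 4 wpt Gad2 and Slc6a11 did not overlap, against 6.08%, and 0.495% of all tested genes were called higher.

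Slc6a11 came closest to the threshold in single weeks, at 4 wpt, where its log2 fold change was 1.29 (SE 0.27, edgeR adjusted p = 0.0114). At that week Slc6a5 had 1.54 (SE 0.45, edgeR adjusted p = 0.057), Gad2 1.31 (SE 0.39, edgeR adjusted p = 0.0608) and Slc32a1 1.06 (SE 0.50, edgeR adjusted p = 0.217). When +PBS-4w replicate 1 was left out, Slc32a1, Slc6a5 and Slc6a11 were called, with log2 fold changes of 1.97, 2.00 and 1.28. The share of all tested genes called in that fit is not given, so whether the rise was particular to these genes was not tested. For Slc6a9 the difference at 4 wpt was 0.24 (SE 0.23, edgeR adjusted p = 0.56). A test of whether the +MSC effect differed between the 3 weeks gave an adjusted p of 1 for each of the 7 genes (edgeR quasi-likelihood F test). In that test 0 of all tested genes passed an adjusted p of 0.05 and 2.67% passed an unadjusted p of 0.05.

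**Figure D2:**
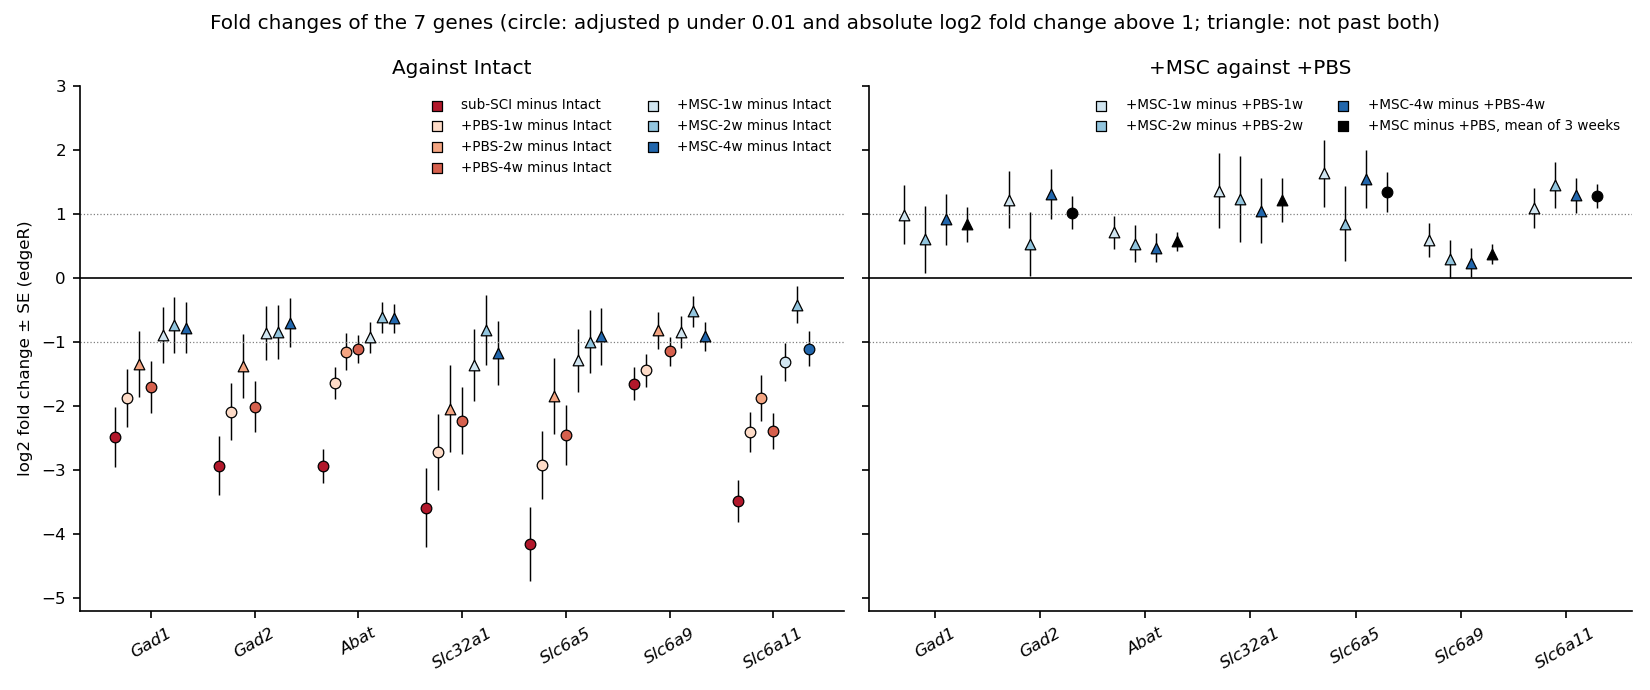
Log2 fold changes of the 7 genes (vertical axis, with SE) against Intact in the left panel and of +MSC against +PBS in the right panel. Circles mark an adjusted p under 0.01 with an absolute log2 fold change above 1, triangles the others, and dotted lines a log2 fold change of 1 and -1. All fold changes lie below 0 on the left and above 0 on the right, and the mean over 3 weeks has circles for Gad2, Slc6a5 and Slc6a11.

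Averaged over the 3 weeks, 3 of 7 genes were called higher in +MSC than in +PBS (1.61% of all tested genes), Slc6a5 with a log2 fold change of 1.34 (SE 0.31, edgeR adjusted p = 0.00457), Slc6a11 with 1.28 (SE 0.18, edgeR adjusted p = 0.000309) and Gad2 with 1.02 (SE 0.26, edgeR adjusted p = 0.00874). All 10 +MSC libraries of Slc6a11 lay above all 9 +PBS libraries, against 0.8% of all tested genes in this direction. Slc32a1 had 1.22 (SE 0.34, edgeR adjusted p = 0.0148), Gad1 0.84 (SE 0.27, edgeR adjusted p = 0.0289) and Abat 0.58 (SE 0.15, edgeR adjusted p = 0.00912), of which Abat passed the adjusted p but not the fold change. Slc6a9 had 0.38 (SE 0.15, edgeR adjusted p = 0.0738). At an adjusted p under 0.05, 6 of 7 genes were higher, against 12.3% of all tested genes, and the median log2 fold change was 1.02 over the 7 genes and -0.02 over all tested genes. Slc6a11 was called in each of the 26 fits that left out 1 library. The call of Gad2 was lost in 19 of them, with fold changes between 0.82 and 1.33, and that of Slc6a5 without +PBS-1w replicate 3, +MSC-2w replicate 1 or +PBS-2w replicate 1. Without +PBS-4w replicate 1, 5 genes were called, with Gad1 and Slc32a1 among them, and the share of all tested genes in that fit is not given. Without all 8 libraries numbered 1, edgeR called none of the 7 (0.186% of all tested genes called higher), with 6 of 7 higher at an unadjusted p under 0.05 against 15.9% of all tested genes. The log2 fold changes were then 1.21 (edgeR adjusted p = 0.0113) for Slc6a11, 1.15 (0.0375) for Slc6a5 and 0.72 (0.135) for Gad2. Over the same weeks 3 of 12 neuron markers were called higher and 12 of 12 had a fold change above 0, with a list median of 0.90. The 8 fibroblast and scar matrix markers moved the other way, with 0 of 8 called lower, 8 of 8 lower at an adjusted p under 0.05 (10.9% of all tested genes) and a median of -1.23. Their summed level was 1242 to 9436 CPM over the +PBS libraries and 558 to 3627 CPM over the +MSC libraries. The 10 astrocyte markers had a median of 0.21, with 0 of 10 called in either direction. At an adjusted p under 0.05, 2 of 10 astrocyte markers were higher (12.3% of all tested genes) and 0 lower (10.9%). The part of these marker shifts in the results of the 7 genes was not tested.

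The 7 genes did not fall and rise by equal amounts. Within each library, the log2 CPM of one gene was subtracted from that of another for 4 pairs, and the 12 differences between groups (4 pairs in 3 comparisons) were compared by two-sided exact permutation tests with Benjamini-Hochberg adjustment. The values are not per length, so only their differences between groups are compared. These pairs were chosen with the fold changes known, so their p-values are no separate support for unequal changes. The glycine transporter Slc6a5 fell further than Gad1. The log2 difference Slc6a5 minus Gad1 was 2.09, 1.75, 1.79 and 1.66 in Intact, -0.01, 0.53 and -0.83 in sub-SCI and 0.95, 1.46, 1.203 and 0.93 in +PBS-4w. No library of either injured group reached the Intact range, and the group means differed from Intact by -1.92 in sub-SCI and -0.68 in +PBS-4w (exact permutation p = 0.0286 each, the smallest possible, adjusted p = 0.0429). With cells it was 1.201, 1.43 and 1.82 in +MSC-1w, 1.47, 1.71 and 1.63 in +MSC-2w and 1.58, 1.73, 1.598 and 1.98 in +MSC-4w, and without cells 0.78, 0.69 and 0.99 in +PBS-1w and 0.95 and 1.49 in +PBS-2w. The +MSC libraries lay above the +PBS libraries at 1 and 4 wpt and overlapped with them at 2 wpt, and the mean difference over the weeks was 0.54 (permutation within weeks over all 14000 regroupings, exact p = 0.000143, adjusted p = 0.000857).

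The pair of glycine transporters showed the widest spread. Slc6a9 minus Slc6a5 was -0.10, 0.50, 0.23 and 0.53 in Intact, 3.26, 2.01 and 4.01 in sub-SCI and 1.07, 1.88, 1.54 and 2.39 in +PBS-4w, so the glial transporter gained on the neuronal one in every library of both injured groups. Against Intact, the mean log2 difference was higher by 2.80 in sub-SCI and 1.43 in +PBS-4w (exact permutation p = 0.0286 each, adjusted p = 0.0429). It was -0.24, 0.28, 1.02 and 0.42 in +MSC-4w, and over the 3 weeks it was lower in +MSC than in +PBS, with a difference of -1.02 on the log2 scale (exact permutation within weeks, p = 0.000143, adjusted p = 0.000857). Gad1 minus Gad2 was 0.37, 0.25, 0.32 and 0.17 in Intact and 0.91, 0.44 and 1.28 in sub-SCI, a difference of 0.60 (exact permutation p = 0.0286, adjusted p = 0.0429). The 2 other differences of that pair were 0.16 in +PBS-4w and -0.19 between +MSC and +PBS (exact permutation p = 0.771 and 0.108). Abat minus Gad1 differed from Intact by -0.44 in sub-SCI (exact permutation p = 0.0286, adjusted p = 0.0429). In +PBS-4w its 4 libraries were at 0.08, 3.10, 2.39 and 2.76, so that replicate 1 was far below the others, and the difference of 0.74 from Intact did not pass (exact permutation p = 0.314). Without that replicate the difference was 1.41 (exact permutation, adjusted p = 0.0343).

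**Figure D3:**
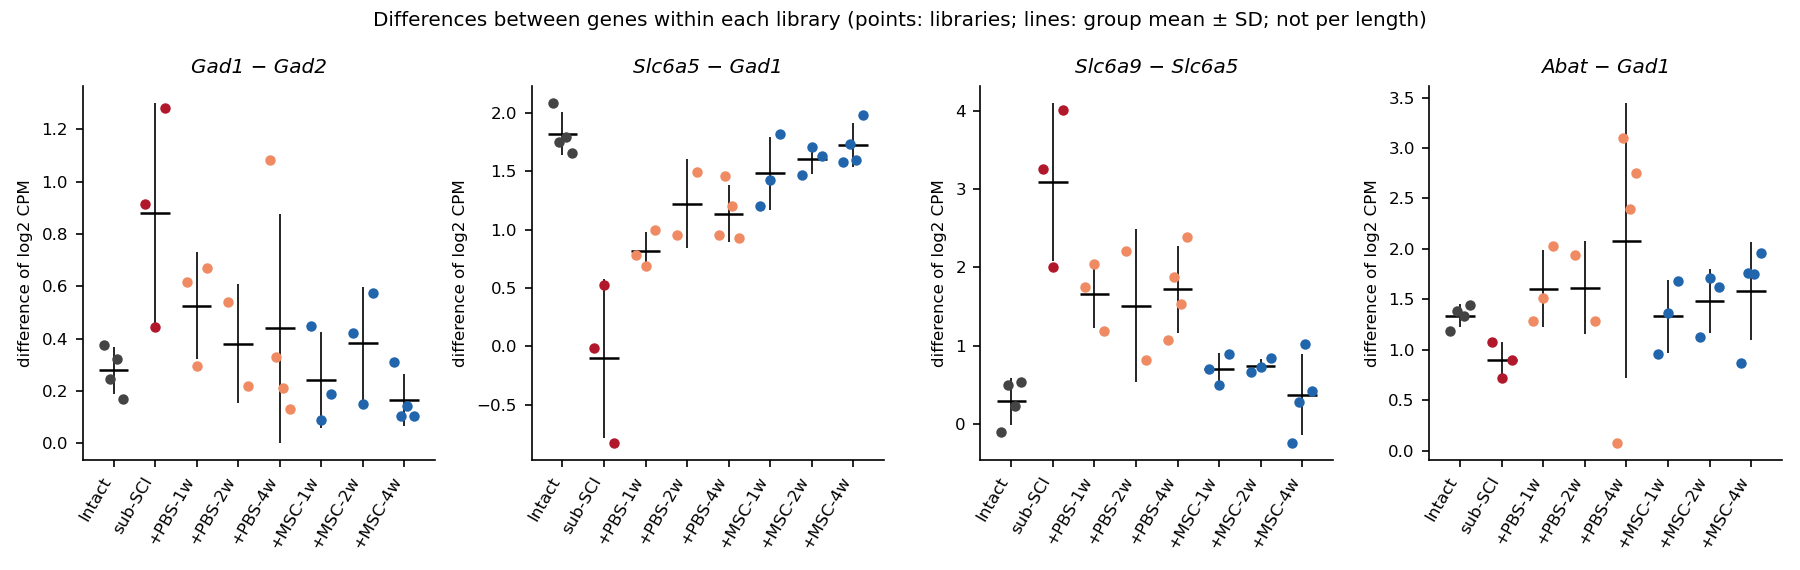
Difference of log2 CPM between 2 genes within each library (vertical axes) for 4 pairs in the 8 groups, with group mean and SD as lines. Slc6a5 minus Gad1 is lowest in sub-SCI, where its 3 libraries lie between -0.83 and 0.53, and Slc6a9 minus Slc6a5 is highest there, between 2.01 and 4.01.

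Because the neuron markers moved with these genes, each gene was also expressed relative to the mean log2 CPM of the 12 neuron markers of the same library, in 21 comparisons (7 genes, 3 comparisons) by the same exact permutation tests. In sub-SCI against Intact, Slc6a5 was lower by this measure (-1.70), as were Slc32a1 (-1.11) and Slc6a11 (-0.77), and Slc6a9 was higher (1.10). Each of these 4 had no overlap between the groups, an exact permutation p of 0.0286, the smallest possible, and an adjusted p of 0.0857. This measure was not computed for the other tested genes, so whether such separation is particular to these genes was not tested. Gad1 (0.23), Gad2 (-0.37) and Abat (-0.21) overlapped with Intact. In +PBS-4w against Intact, Slc32a1 (-0.61) and Slc6a5 (-0.61) had the same exact permutation p and adjusted p. Slc6a11 relative to the neuron markers was -0.85, -0.84, -0.90 and -0.91 in Intact and -2.39, -0.88, -0.93 and -0.90 in +PBS-4w, where replicate 1 alone lay far below the Intact libraries. Without that replicate the difference from Intact was -0.03.

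Between +MSC and +PBS, Slc6a9 alone passed the adjustment on this measure, and it was lower in +MSC relative to the neuron markers. Its own log2 fold change averaged over the weeks was positive, at 0.38, but smaller than the median of 0.90 of the 12 neuron markers. Its level relative to the neuron markers was 0.94, 1.43 and 0.90 in +PBS-1w, 1.38 and 0.92 in +PBS-2w and 0.53, 1.72, 1.53 and 1.48 in +PBS-4w. With cells it was 0.33, 0.76 and 0.83 in +MSC-1w, 0.40, 0.65 and 0.85 in +MSC-2w and 0.25, 0.24, 0.43 and 0.51 in +MSC-4w, below all +PBS libraries of the week in each case. The mean difference was -0.64 (exact permutation within weeks, p = 0.000214, adjusted p = 0.0045). The differences of the other genes were 0.38 for Slc6a5 (exact permutation p = 0.0346, adjusted p = 0.0909), 0.28 for Slc32a1 (p = 0.0626), 0.26 for Slc6a11 (p = 0.19), 0.02 for Gad2 (p = 0.885), -0.16 for Gad1 (p = 0.199) and -0.46 for Abat (p = 0.0946). Without +PBS-4w replicate 1, Abat also passed, with a difference of -0.68 (exact permutation within weeks, adjusted p = 0.039).

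**Figure D4:**
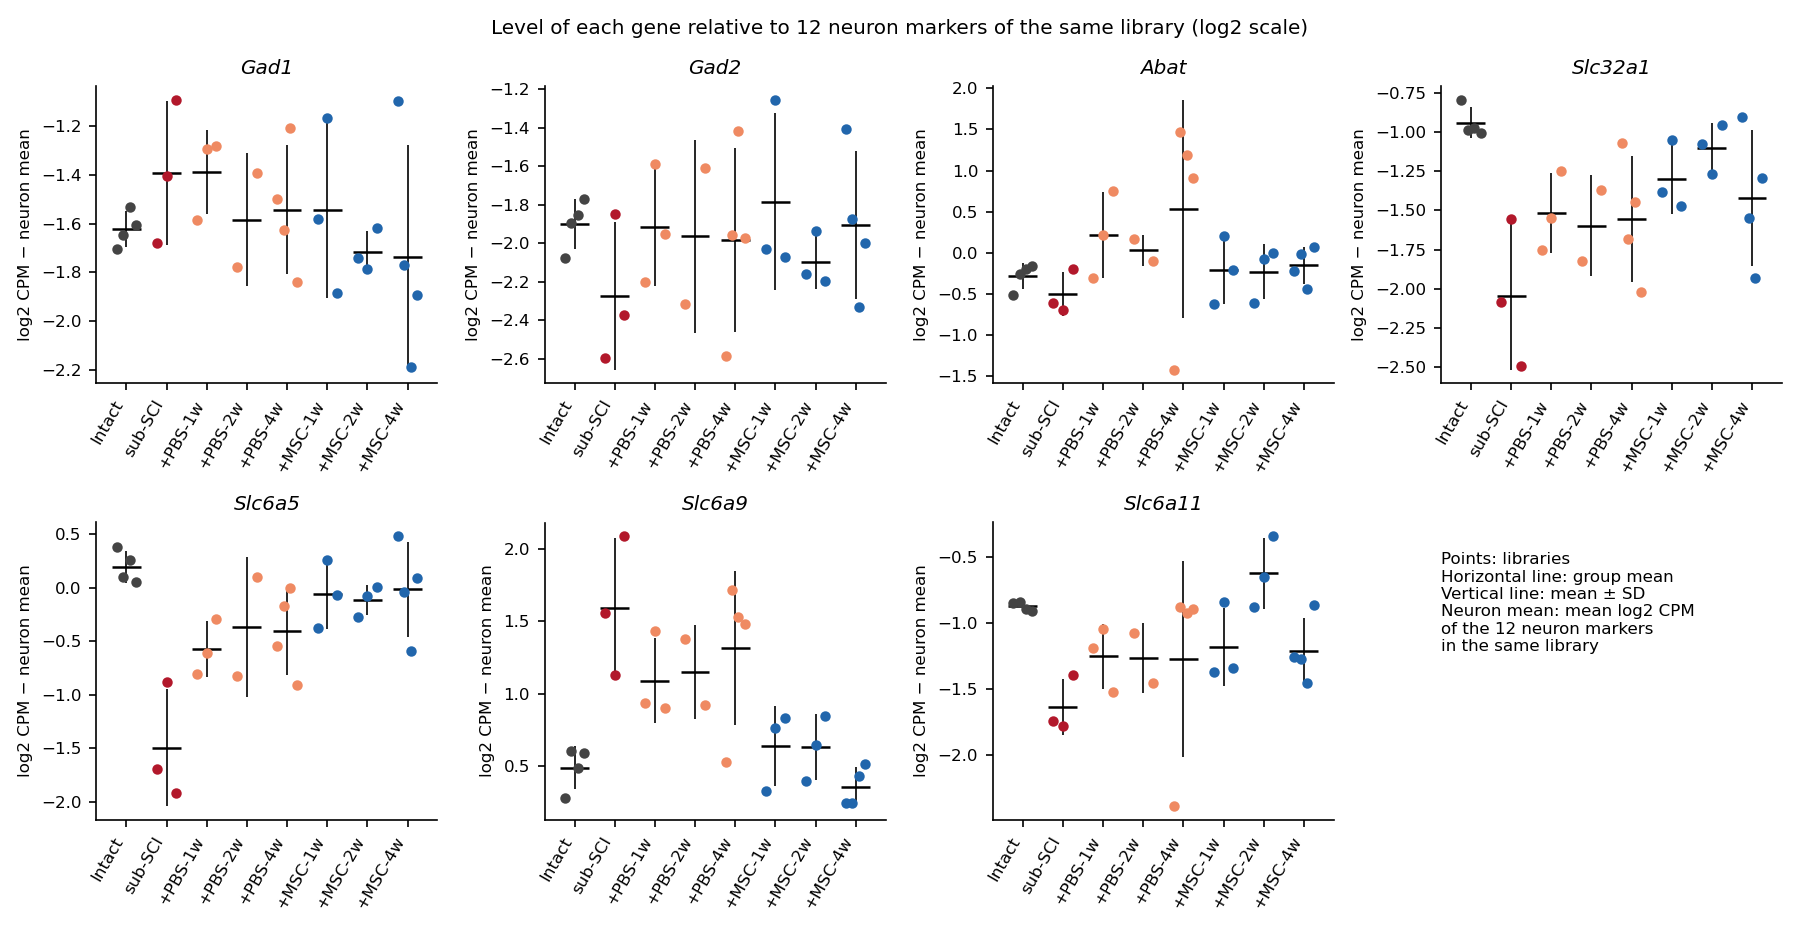
Log2 CPM of each gene minus the mean log2 CPM of 12 neuron markers in the same library (vertical axes) in the 8 groups, with group mean and SD as lines. Slc6a9 lies above its Intact libraries in all 3 sub-SCI libraries, Slc6a5 and Slc32a1 lie below theirs, and +PBS-4w replicate 1 is low for Slc6a11 (-2.39) and Abat (-1.42).

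Over the 26 libraries, the genes whose log2 CPM followed each of the 7 most closely were found among the tested genes with a gene name. Names beginning with LOC, RGD or a similar identifier were left out. The coefficients describe shared group differences and shared libraries and carry no test. Slc32a1 was closest to Grin1, an NMDA receptor subunit (Pearson r = 0.993), followed by Kcnc1 and Tmem130 (0.992 each). Slc6a5 was closest to the serotonin receptor gene Htr2c (0.990), then Smim17 (0.988). Gad1 was closest to Cbarp (0.989), Nptx1 (0.987) and Nrsn2 (0.985), and Gad2 to Cntnap4 (0.982), Smim17 (0.981) and Sgsm1 (0.979). Slc6a11 was closest to Mapk8ip3 (0.981), Mapk10 (0.978) and the presynaptic active zone gene Rims1 (0.977). Slc6a9 was closest to Slc25a27 (0.980), Pou3f3 (0.979) and Aldh5a1 (0.972), which encodes the enzyme after Abat in GABA breakdown. Abat was closest to Sptb (0.970) and Frmpd4 (0.970). Among the 7 genes themselves, r was highest for Gad1 with Slc32a1 (0.980) and lowest for Gad1 with Abat (0.767).

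Other genes of the pathway were described from lists chosen by function. Of 5 other transporters of GABA, glycine and related amino acids, 2 were called lower and 1 higher in sub-SCI against Intact (17.5% and 16.6% of all tested genes), with a list median log2 fold change of 0.20. Slc7a10, an exchanger that carries glycine and serine, had the largest fall, -3.49 (SE 0.57, edgeR adjusted p = 2.05e-05), and Slc6a6, the taurine transporter, was called higher at 1.03 (SE 0.27, edgeR adjusted p = 0.00253). In +PBS-4w 2 of the 5 were called higher than Intact and 1 lower (13.3% and 10.7% of all tested genes). Slc6a13, the GABA transporter GAT-2 known from the meninges, had 2.62 (SE 0.57, edgeR adjusted p = 0.000579) and Slc7a10 -2.68 (SE 0.49, edgeR adjusted p = 0.000118). Averaged over the weeks, Slc6a13 was lower in +MSC than in +PBS, at -1.42 (SE 0.36, edgeR adjusted p = 0.0079), and Slc7a10 higher, at 1.23 (SE 0.32, edgeR adjusted p = 0.00957), so 1 gene was called in each direction (0.956% of all tested genes called lower and 1.61% higher). Slc6a13 was spread widely in the intact cord, from 3.71 to 55.6 CPM.

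Of 9 genes that make or cleave glycine, 1 was called lower and 1 higher in sub-SCI, near the shares of all tested genes (17.5% and 16.6%), with a median log2 fold change of -0.51. Psat1, of serine synthesis, had -1.13 (SE 0.25, edgeR adjusted p = 0.000469) and Shmt1, which converts serine to glycine, 2.38 (SE 0.22, edgeR adjusted p = 6.94e-09). Shmt1 was also the 1 gene of the list called in +PBS-4w against Intact, at 1.45 (SE 0.20, edgeR adjusted p = 5.32e-06), and edgeR called none of the 9 between +MSC and +PBS, where 2 were higher at an unadjusted p under 0.05, near the 18% of all tested genes. Of 10 genes of glutamine, glutamate and GABA metabolism, 4 were called lower and 1 higher in sub-SCI (17.5% and 16.6% of all tested genes), with a median of -0.72. Gls2, a glutaminase, had -2.64 (SE 0.33, edgeR adjusted p = 5.86e-07) and the glutamine transporter Slc38a5 1.55 (SE 0.28, edgeR adjusted p = 5.28e-05). In +PBS-4w 2 were called lower (10.7% of all tested genes) and none higher (13.3%), with Gls2 at -1.96 (SE 0.29, edgeR adjusted p = 8.95e-06), and edgeR called none between +MSC and +PBS, where 5 were higher and 1 lower at an unadjusted p under 0.05, against 18% and 18.2% of all tested genes.

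Most genes of the receiving side of inhibitory synapses were lower after injury too. Of 9 postsynaptic genes, 7 were called lower in sub-SCI (median -2.49, with 17.5% of all tested genes called lower) and 7 in +PBS-4w (median -1.57, with 10.7%), and none was called higher (16.6% and 13.3%). The glycine receptor subunit Glra1 had the largest change in each, -4.36 (SE 0.41, edgeR adjusted p = 1.16e-08) in sub-SCI and -3.01 (SE 0.34, edgeR adjusted p = 3.5e-07) in +PBS-4w. Averaged over the weeks, 2 of the 9 were called higher in +MSC than in +PBS (1.61% of all tested genes), led by Glra1 with 1.47 (SE 0.22, edgeR adjusted p = 0.000387). Of 6 transcription factors of inhibitory interneurons 5 were tested, and 4 were called lower in sub-SCI (17.5%) and 3 in +PBS-4w (10.7%). Pax2 had -3.16 (SE 0.39, edgeR adjusted p = 4.59e-07) in sub-SCI and -2.68 (SE 0.34, edgeR adjusted p = 1.4e-06) in +PBS-4w, and was 1 of the 2 of this list called higher in +MSC over the weeks (1.61%), at 1.28 (SE 0.22, edgeR adjusted p = 0.000747). Carriers of other transmitters also fell. Of 5 other vesicular transmitter transporters, 4 were called lower in sub-SCI (17.5%) and 2 in +PBS-4w (10.7%), with Slc17a7, a vesicular glutamate transporter, at -5.02 (SE 1.04, edgeR adjusted p = 0.000259) and -4.54 (SE 0.90, edgeR adjusted p = 0.000251). The monoamine carrier Slc18a2 was the 1 called higher in sub-SCI (16.6%), at 1.01 (SE 0.15, edgeR adjusted p = 8.71e-06). Slc17a6, the other vesicular glutamate transporter of neurons, was the 1 gene of this list called higher in +MSC (1.61%), at 1.01 (SE 0.25, edgeR adjusted p = 0.00776).

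**Figure D5:**
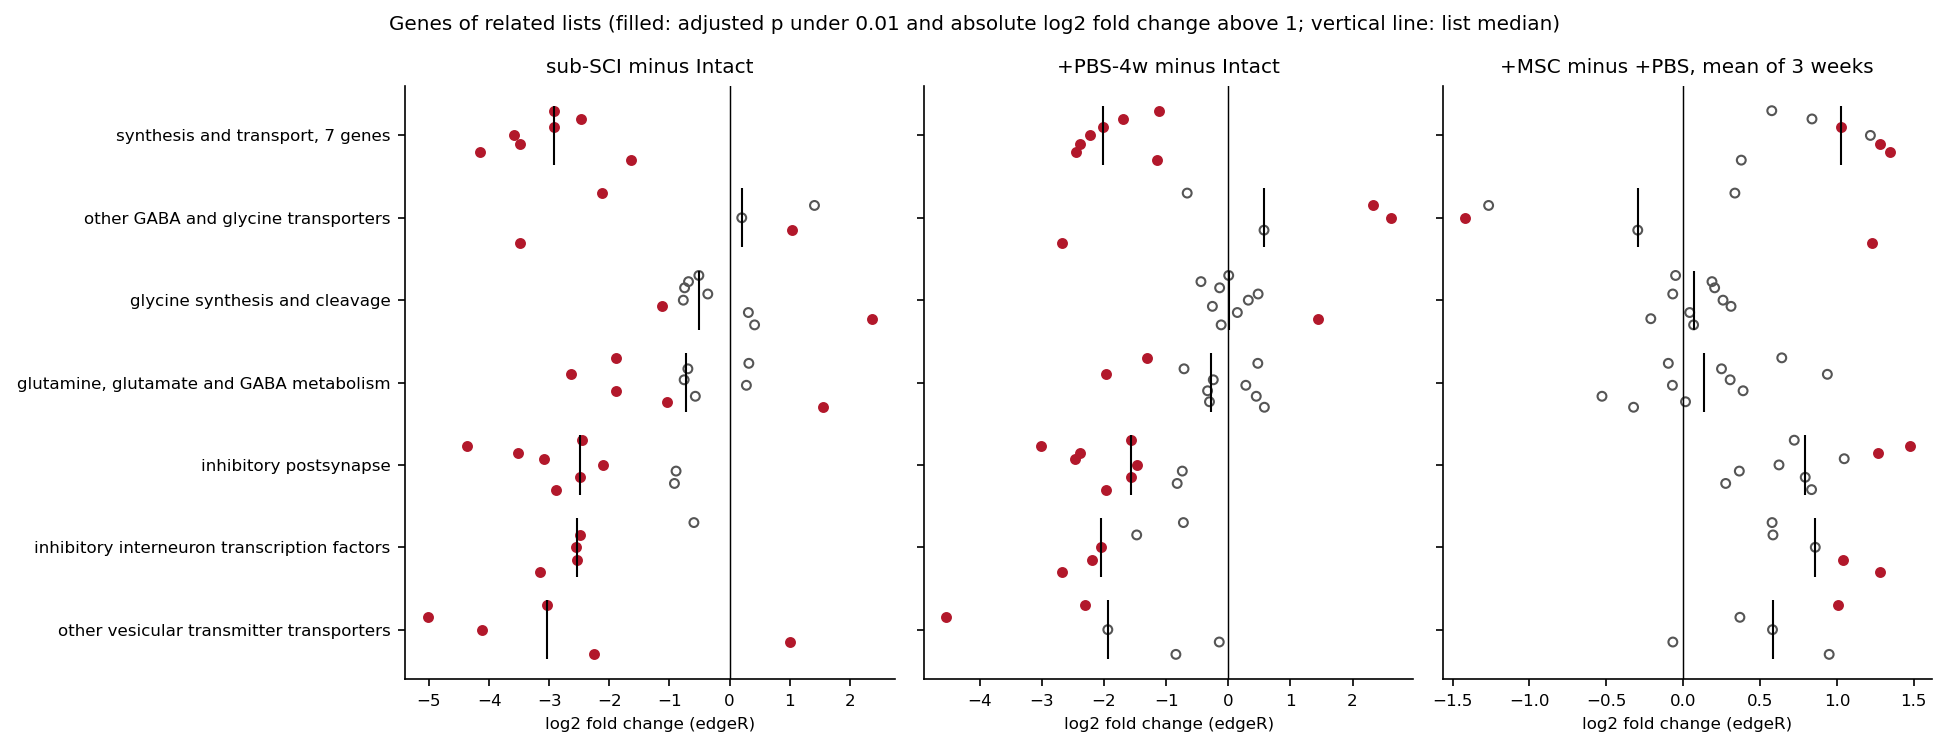
Log2 fold changes (horizontal axes) of the 7 genes and of 6 related lists (rows) in sub-SCI against Intact, in +PBS-4w against Intact and in +MSC against +PBS over 3 weeks. Filled points mark an adjusted p under 0.01 with an absolute log2 fold change above 1, and vertical lines the list medians, which lie at -2.93 for the 7 genes, -2.49 for the postsynaptic genes and 0.20 for the other transporters in sub-SCI.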

How the data were processed

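The RNA of 26 spinal cord libraries was compared among 8 groups. The authors deposited unnormalized whole-number read counts for each gene. Per the labels and the study's methods, reads were trimmed (Trim Galore 0.5.0), human reads were removed and the rest aligned to rat (HISAT2 2.1.0, SAMtools 1.9) and counted (featureCounts 1.6.4). The annotation release and strand setting are not given in the sources used here, so overlapping genes are uncertain. Each library's file was equal to its column of the joint table in 26 of 26 cases, and no pair of libraries was identical. Nothing in the labels says that replicates are separate animals, whereas the study's methods describe them as biological replicates. The p-values measure the spread between libraries.

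Analysis was run in edgeR 4.0.16 under R 4.3.3. The 17990 genes kept by filterByExpr were scaled by TMM and fitted in 1 quasi-likelihood model with 8 groups, with Benjamini-Hochberg adjustment over these genes in each comparison. Differences between genes within a library used log2 CPM with a prior count of 2 and two-sided exact permutation tests, which between +MSC and +PBS regrouped libraries within weeks. Replicate numbers were not used as pairs, because in no comparison did every same-numbered pair of deviations correlate above 0.1. For the libraries numbered 1 alone, the correlation ran from -0.08 in +MSC-2w against +PBS-2w to 0.32 in +MSC-4w against Intact. It was above 0.1 in most comparisons, and whether these libraries share an effect was not tested. On simulated data 184 of 200 genes with a log2 change of 2 were recovered between sub-SCI and Intact and 185 of 200 between +MSC-4w and +PBS-4w, with 0 and 1 false calls. In +MSC-4w against +PBS-4w the 7 genes had log2 fold changes of 0.24 to 1.54, and the recovery of changes of that size was not tested. The 7 genes and the lists were chosen with earlier results of these data known. Named are the 7 genes, for each list the called gene with the largest change in each direction, and the 3 genes most correlated with each of the 7, of which 2 are not reported here. Genes named beside a count of 5 or fewer, and the libraries that stood apart, were picked after their values were seen. The alternatives were DESeq2 1.42.0, fits of the compared groups only, other size factors and filters, a replicate block, a term for or removal of the libraries numbered 1, and leaving out each library. No coordinates of the files' own build (Rnor6) are given.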

Additional observations from a re-analysis of the deposited data

Results flagged for a closer look

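In 54 groups of 4 libraries (7 genes, 4 differences between genes and 7 levels relative to neuron markers, in 3 groups), 5 had a library far from the other 3 by Dixon's criterion, where chance flags about 1 in 20. For Slc32a1, Intact replicate 1 had 252.5 CPM against 169 to 183 in the others, and -0.79 against -1.005 to -0.97 relative to the neuron markers on the log2 scale. In +PBS-4w, replicate 1 had 102 CPM of Slc32a1 against 18.9 to 26.4. For Abat the same library had 80.1 CPM against 155 to 169. Its Slc6a11 level relative to the neuron markers was -2.39 against -0.93 to -0.88. This library also had the highest neuron marker sum and the lowest fibroblast and scar matrix sum of its group, as given above, and their part in these values was not tested.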

How the results depend on the processing

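The direction and the call of the 7 genes were the same in 2314 of 2366 results (7 genes in 13 comparisons) from the 26 fits that left out 1 library, and in 760 of 819 results from the 9 other alternatives. All 7 stayed called lower between sub-SCI and Intact in each alternative. In +MSC-4w against +PBS-4w, 1 gene was called with no filter, with at least 10 counts in every library, with a replicate block, with a term for the replicate 1 libraries and with DESeq2 on all libraries, and 2 with DESeq2 on the compared groups. In +PBS-4w against sub-SCI, the count was 2 with at least 10 counts, 3 with the block, 2 with the replicate 1 term, 3 with DESeq2 on all libraries, and 0 with edgeR and 2 with DESeq2 on the compared groups. In +PBS-2w against Intact it was 6 with the block, 0 without all libraries numbered 1, 4 with DESeq2 on all libraries, and 4 with edgeR and 6 with DESeq2 on the compared groups. The block changed no other count of called genes by over 1.5 times, and the main fit used no replicate numbers. In +MSC-1w against Intact, the count was 0 without the libraries numbered 1 and 3 with edgeR or DESeq2 on the compared groups. For +MSC against +PBS over 3 weeks it was 0 without the libraries numbered 1. On the compared groups alone, edgeR called 3 in +MSC-4w against sub-SCI, and DESeq2 called 2 in +MSC-4w against Intact, 3 in +MSC-1w against +PBS-1w and 1 in +MSC-2w against +PBS-2w. The cause of these differences was not tested. For most of the alternative fits and of the fits that left out 1 library, here and above, the share of all tested genes called is not given. Whether those counts moved more than the whole set of genes was not tested.

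Leaving out 1 library at a time gave counts of 1 to 5 for +MSC against +PBS over 3 weeks, 0 to 1 for +MSC-1w and +MSC-4w against Intact, 0 to 3 for +MSC-4w against +PBS-4w, 4 to 6 for +MSC-4w against sub-SCI, 6 to 7 for +PBS-1w and +PBS-4w, 0 to 4 for +PBS-2w and 1 to 2 for +PBS-4w against sub-SCI. The number of differences between genes that passed was 0 to 4 in sub-SCI, 0 to 3 in +PBS-4w and 2 to 3 over the weeks. Relative to neuron markers it was 1 to 2 over the weeks. Without all libraries numbered 1 it was 0 in sub-SCI, 0 in +PBS-4w and 1 over the weeks for the pairs, and 0 over the weeks relative to the markers. For the pairs in sub-SCI and +PBS-4w that 0 was fixed in advance, since the remaining libraries allowed no permutation p under 0.05. The same held in sub-SCI when 1 Intact or sub-SCI library was left out. Leaving out 1 library, the sub-SCI difference from Intact was 2.34 to 3.34 for Slc6a9 minus Slc6a5. It was -2.24 to -1.56 for Slc6a5 minus Gad1, 0.40 to 0.82 for Gad1 minus Gad2 and -0.53 to -0.35 for Abat minus Gad1.

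Reversed directions concerned differences that were not called. For +MSC-2w against +PBS-2w without the libraries numbered 1, Gad1 was -0.10 and Gad2 -0.24, and Gad2 ran from -0.012 to 1.44 when 1 library was left out. Without the libraries numbered 1, Gad2 relative to neuron markers was 0.058 in +PBS-4w and -0.21 over the weeks, and Gad1 minus Gad2 in +PBS-4w was -0.022. Relative to Rbfox3 alone, Gad2 was 0.33 and Abat 0.49 in sub-SCI, Gad2 0.50 and Slc6a11 0.19 in +PBS-4w, and Gad2 -0.23 over the weeks. Leaving out 1 library, Gad1 relative to the 12 markers ran from -0.034 to 0.18 in +PBS-4w, Gad2 from -0.27 to 0.12 there and from -0.094 to 0.14 over the weeks, and Gad1 minus Gad2 in +PBS-4w from -0.053 to 0.26. Every value of the 7 genes rests on at least 131 raw reads, and groups of 2 to 4 libraries limit the tests.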
